A study of Caenorhabditis elegans with 47 samples.

Results

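The 40 genes described here encode the machinery of oxidative phosphorylation in the nematode Caenorhabditis elegans, out of 17118 genes measured on the same arrays. They are all genes whose symbol in the platform annotation is nuo-, cox-, atp-, asb-, asg-, ucr- or cyc- followed by a number, together with gas-1, isp-1, mev-1, sdha-1, sdhb-1 and sdhd-1. By role they comprise 6 genes of complex I, 4 of complex II, 6 of complex III, 2 cytochromes c, 7 subunits and 6 assembly factors of complex IV, and 9 genes of complex V. One of the complex V genes, asb-1, is the germline paralogue of asb-2 and was counted apart from the other 39. Worms were raised at 16 °C, moved to 25 °C early in the third larval stage, and harvested at the move (T0) and 4, 8, 12, 16 and 20 h later (T4 to T20). The worms expressed Abeta, the peptide of Alzheimer's plaques, GFP::degron, a GFP carrying a degron as its name says, or GFP. All groups shared the upshift. The sources used here do not give the promoters, the tissues of expression, any further alleles or the number of clonal lines.

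Oxidative phosphorylation takes place in the inner mitochondrial membrane. Complexes I and II pass electrons from NADH and succinate to ubiquinone, complex III passes them to cytochrome c, and complex IV passes them to oxygen. The proton gradient built on the way drives complex V, the ATP synthase. In worms, mutations in gas-1, isp-1 and mev-1 are known for their effects on respiration, oxidative stress and lifespan, and several subunits have a second gene copy.

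T8, T12 and T16 had 3 to 5 usable arrays per strain, which the labels call biological repeats. The other times, T0, T4 and T20, were measured once in each strain. GFP T8 replicate 3 had a median intensity of 20.3, against 60.1 to 108.7 on the other 46 arrays, and was left out. That left 15 Abeta, 16 GFP::degron and 15 GFP arrays. Levels are log2(intensity + 1) with every array set to a common median, differences are in log2 with the SE of the limma fit, and a gene was called at a Benjamini-Hochberg adjusted p under 0.05 over all 17118 genes. The p-values measure the spread between these repeats, or, for T0, T4 and T20, between the 3 strains. RNA came from whole worms, so fewer cells of a type and less RNA per cell cannot be told apart. The RNA of the germ line moved strongly within the series. The mean log2 level of 17 sperm markers was 9.17 to 10.70 on the Abeta arrays of T16, against 4.65 to 5.55 at T8, and 10.57 to 10.93 on the GFP arrays of T16, against 4.77 to 7.23 at T8. The GFP::degron arrays of T16 were split, at 5.18, 10.07, 7.67 and 6.77 for replicates 1 to 4, and GFP T12 replicates 1 and 4, at 8.997 and 8.44, lay above the other GFP arrays of T12, whose highest was 7.19.

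The median level over the 39 members other than asb-1 showed the course of the group as a whole. In Abeta worms it was 11.22 at T0, 11.39 at T4, 11.42 ± 0.090 at T8 (SD, n = 4), 11.52 ± 0.166 at T12 (n = 4), 11.18 ± 0.115 at T16 (n = 4) and 10.92 at T20. In GFP::degron worms it was 11.95 at T0, 11.59 at T4, 11.40 ± 0.162 at T8 (n = 4), 11.52 ± 0.133 at T12 (n = 5), 11.21 ± 0.179 at T16 (n = 4) and 11.12 at T20. In GFP worms it was 11.41 at T0, 11.52 at T4, 11.56 ± 0.077 at T8 (n = 3), 11.64 ± 0.123 at T12 (n = 5), 11.21 ± 0.044 at T16 (n = 4) and 11.18 at T20. The 3 strains were farthest apart at T0, where each is 1 array, and within each strain T20 was the lowest time.

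**Figure D1:**
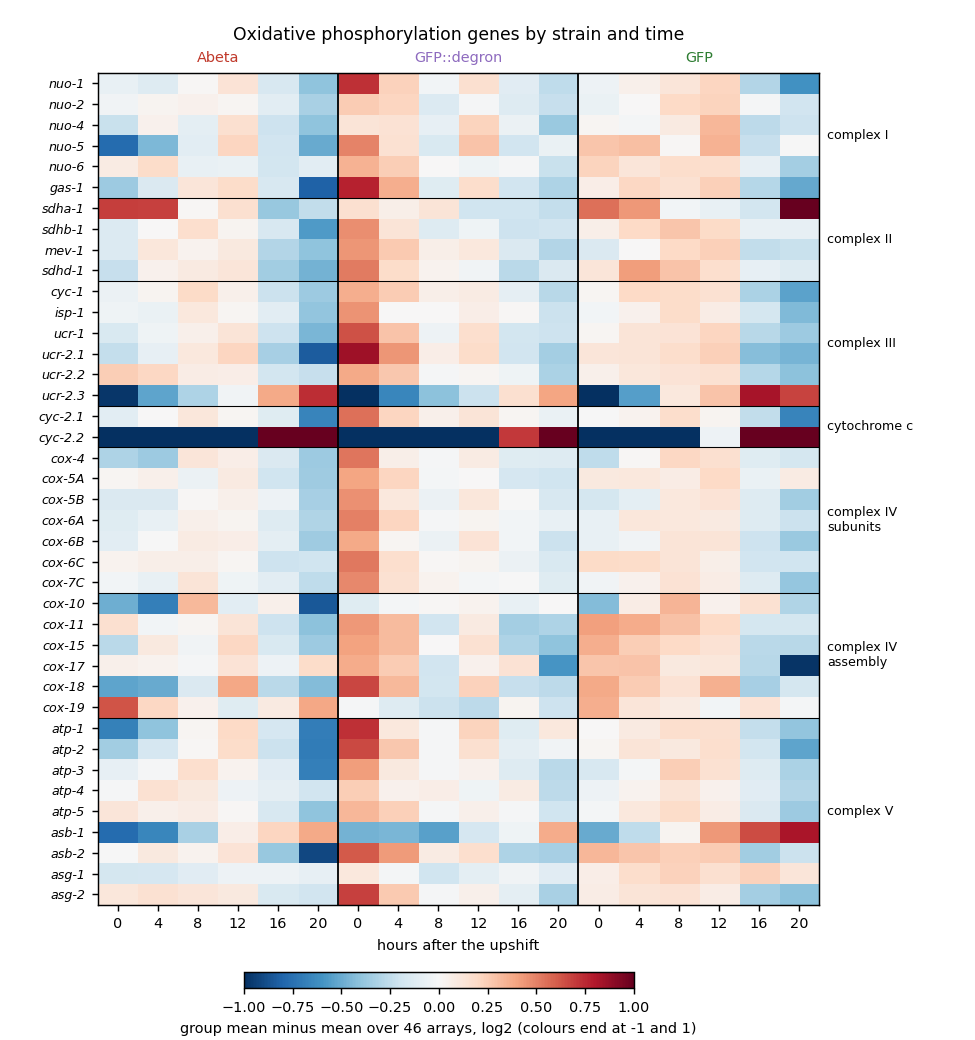
Each row is 1 of the 40 members, grouped by complex, and each column is a strain and time after the upshift (hours). Colours give the group's mean log2 level minus the gene's mean over 46 arrays, ending at -1 and 1. Most rows are lower at T16 and T20 than at T8 and T12, while ucr-2.3, cyc-2.2 and asb-1 run the other way.

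Between T8 and T16, the same 3 members were called higher in Abeta and GFP worms, and 1 of them in GFP::degron worms. Every other called member fell. In Abeta worms 3 of the 40 members rose and 5 fell, 20 percent in all, beside 16.1 percent of all genes (8.32 percent higher and 7.73 percent lower). In GFP::degron worms 1 rose and 1 fell, 5 percent, beside 6.05 percent of all genes (3.51 percent higher and 2.54 percent lower). In GFP worms 3 rose and 18 fell, 52.5 percent, beside 24.9 percent of all genes (11.4 percent higher and 13.5 percent lower). Leaving out 1 array at a time, the members called numbered 4 to 9 in Abeta worms, 0 to 4 in GFP::degron worms and 11 to 23 in GFP worms, where 11 were called without GFP T8 replicate 4 and 13 without GFP T8 replicate 2. The lowest count in Abeta worms came without Abeta T16 replicate 3, and 5 were called without Abeta T8 replicate 2 or 4. In GFP::degron worms 0 were called without T8 replicate 2 or T16 replicate 2, 3 or 4, 1 without T8 replicate 1 or 4, and 4 without T16 replicate 1. With only the compared groups in the fit, 3, 0 and 9 members were called. Most members are bright, and among genes of mean level of at least 6, 25 of 39 members were called in GFP worms, beside 35.5 percent of all such genes. The median difference over the members was -0.22 in Abeta, -0.06 in GFP::degron and -0.34 in GFP worms, and over all genes -0.17, -0.01 and -0.19. Relative to these shifts the members' medians were -0.05, -0.05 and -0.15. Without centring the arrays, the members called higher and lower numbered 3 and 1 in Abeta, 1 and 1 in GFP::degron and 3 and 17 in GFP worms. That setting called 12.4, 4.63 and 22.8 percent of all genes in these strains. In Abeta worms that setting called 1518 of all genes higher and 603 lower, in place of 1425 and 1324.

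The members that rose are second copies of subunits that fell or did not pass the test. The gene cyc-2.2 encodes a cytochrome c, the mobile electron carrier between complexes III and IV, as does cyc-2.1. Its level at T16 was 12.05, 12.82, 13.27 and 11.99 on the Abeta arrays, against 5.55, 6.10, 5.94 and 5.64 at T8. On the GFP arrays of T16 it was 13.23, 13.39, 13.30 and 12.92, against 5.55, 6.65 and 6.30 at T8. The T16 and T8 arrays did not overlap in either strain. The difference was 6.73 ± 1.17 in Abeta worms and 7.05 ± 1.26 in GFP worms (limma adjusted p 0.000202 and 0.000166, all 4 T16 arrays higher in each). All T8 levels but that of GFP replicate 2 lay below the median gene's mean level of 6.5035. Whether the probe set was above background there was not tested, so no fold is given. In GFP::degron worms the 4 arrays of T16 read 5.64, 12.63, 9.85 and 5.99, against 5.66, 5.72, 5.68 and 5.43 at T8, a difference of 2.90 ± 1.17 that did not pass (limma adjusted p 0.142). Replicates 2 and 3 of GFP::degron T16 were high, replicate 1 lay within the range of the T8 arrays and replicate 4 just above it. At T12 the 4 Abeta arrays lay between 4.77 and 5.67 and the 5 GFP::degron arrays between 5.02 and 5.75, while GFP replicates 1 and 4 read 11.67 and 11.28 and the other GFP arrays 5.21, 4.85 and 5.86. The GFP T12 spread entered the error of every difference of this gene. With those 2 arrays left out, an alternative chosen after seeing the data, the GFP::degron difference of 2.90 had a limma adjusted p of 0.0263. Leaving out 1 array at a time, the difference was lowest at 1.53, without GFP::degron T16 replicate 2, and highest at 3.86, without GFP::degron T16 replicate 1, where it passed.

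The gene cyc-2.1 did not follow its copy. Its levels were 12.76, 13.17, 12.998 and 13.04 on the GFP arrays of T16, against 13.31, 13.49 and 13.44 at T8. These groups did not overlap, and cyc-2.1 fell by 0.42 ± 0.130 in GFP worms (limma adjusted p 0.0164, lower on 4 of 4 arrays). The differences were -0.24 ± 0.120 in Abeta worms and -0.03 ± 0.122 in GFP::degron worms, and neither passed. The call in GFP worms was lost when GFP T8 replicate 2, GFP T8 replicate 4 or GFP T16 replicate 1 was left out.

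A second pair of paralogues lies in complex V. The genes asb-1 and asb-2 both encode the b subunit of the stalk that holds the catalytic head of the ATP synthase, and asb-1 is known as the germline form. The level of asb-1 at T16 was 9.95, 10.02, 9.93 and 9.91 on the Abeta arrays, against 9.38, 9.19, 9.69 and 9.38 at T8. On the GFP::degron arrays it was 9.63, 9.88, 9.62 and 9.65, against 8.92 to 9.52 at T8, and on the GFP arrays 10.38, 10.39, 10.53 and 10.25, against 9.57, 10.15 and 9.57. T16 lay above T8 on every array of each strain. It rose by 0.54 ± 0.143 in Abeta, 0.51 ± 0.143 in GFP::degron and 0.62 ± 0.154 in GFP worms (limma adjusted p 0.00935, 0.0312 and 0.0037). The call in GFP::degron worms was lost in 5 of 37 fits that left out 1 array.

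The somatic copy moved the other way. The level of asb-2 at T16 was 10.998, 11.06, 10.89 and 11.11 on the Abeta arrays, against 11.26 to 11.58 at T8. It was 11.31, 10.90, 11.002 and 11.13 on the GFP::degron arrays, against 11.37 to 11.69, and 11.22, 10.96, 10.97 and 11.04 on the GFP arrays, against 11.56 to 11.71. It fell by 0.41 ± 0.112 in Abeta, 0.39 ± 0.112 in GFP::degron and 0.58 ± 0.121 in GFP worms (limma adjusted p 0.0119, 0.0324 and 0.000792, 4 of 4 arrays in each), with no overlap between T16 and T8 in any strain. It and asb-1 were the members called in all 3 strains. The GFP::degron call of asb-2 was lost in 5 of 37 fits that left out 1 array, and its Abeta call without Abeta T16 replicate 3.

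The third set of paralogues is in complex III, where ucr-1, ucr-2.1, ucr-2.2 and ucr-2.3 encode core proteins. The level of ucr-2.3 at T16 was 9.37, 9.47, 9.48 and 9.34 on the Abeta arrays, against 8.62, 8.33, 9.10 and 8.88 at T8. It was 9.07, 9.36, 9.25 and 9.10 on the GFP::degron arrays, against a mean of 8.63 ± 0.317 (SD, n = 4), and 9.74, 9.87, 10.04 and 9.80 on the GFP arrays, against 8.85, 9.48 and 9.09. The gene rose by 0.68 ± 0.182 in Abeta and 0.72 ± 0.197 in GFP worms (limma adjusted p 0.0102 and 0.0073). In GFP::degron worms the difference was 0.57 ± 0.182, higher on 4 of 4 arrays, and did not pass (limma adjusted p 0.0587). That difference did pass when GFP T12 replicates 1 and 4 were left out (limma adjusted p 0.0293). The Abeta call was lost without Abeta T8 replicate 2 and the GFP call without GFP T8 replicate 1.

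The level of ucr-2.1 at T16 was 11.18, 11.19, 10.89 and 11.25 on the Abeta arrays, against 11.42 to 11.71 at T8. On the GFP arrays it was 11.04, 11.01, 11.03 and 11.07, against 11.57, 11.68 and 11.65. It fell by 0.44 ± 0.125 in Abeta and 0.60 ± 0.135 in GFP worms (limma adjusted p 0.016 and 0.00174), or by 0.27 and 0.41 relative to the median of all genes. In GFP::degron worms it differed by -0.26 ± 0.125, lower on 3 of 4 arrays (limma adjusted p 0.242). The Abeta call was lost without Abeta T8 replicate 4 or Abeta T16 replicate 3. In GFP worms ucr-1 and ucr-2.2 also fell, by 0.41 and 0.42 (limma adjusted p 0.0113 and 0.0175).

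**Figure D2:**
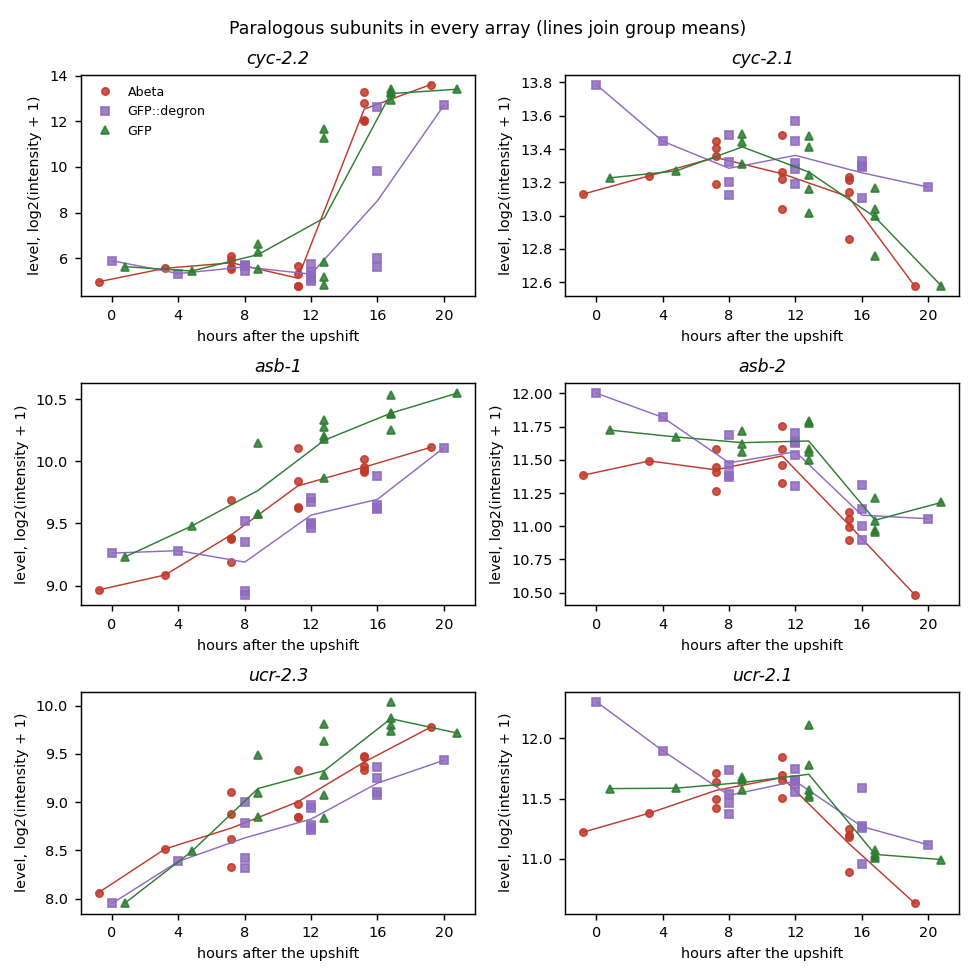
Every array's log2 level (y axis) against hours after the upshift (x axis) for 3 genes that rose (left: cyc-2.2, asb-1, ucr-2.3) and a paralogue of each (right: cyc-2.1, asb-2, ucr-2.1), with lines through group means. Abeta, GFP::degron and GFP arrays are circles, squares and triangles, and the left panels climb toward T16 and T20 while the right panels decline.

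The other members of complex III moved with ucr-2.1. The gene cyc-1, which encodes cytochrome c1, fell by 0.41 ± 0.108 in Abeta and 0.50 ± 0.117 in GFP worms (limma adjusted p 0.00977 and 0.00206, all 4 arrays of T16 below all of T8 in each). Its GFP levels were 10.66, 10.67, 10.55 and 10.64 at T16, against 11.05, 11.11 and 11.23 at T8. The Rieske iron-sulfur protein gene isp-1 fell by 0.36 ± 0.107 in GFP worms (limma adjusted p 0.0144). Its differences were -0.21 in Abeta and 0.01 in GFP::degron worms, and neither passed. In GFP worms 5 of the 6 complex III genes were therefore called lower and the other, ucr-2.3, higher.

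In complex II, which also belongs to the tricarboxylic acid cycle, mev-1 encodes a cytochrome b subunit, sdhd-1 the other membrane anchor, and sdha-1 and sdhb-1 the flavoprotein and the iron-sulfur subunit. Here mev-1 fell by 0.33 ± 0.112 in Abeta and 0.44 ± 0.121 in GFP worms (limma adjusted p 0.0427 and 0.00751). Its T16 and T8 arrays overlapped in Abeta worms and not in GFP worms. The gene sdhd-1 fell by 0.44 ± 0.136 in Abeta worms (limma adjusted p 0.0242) and differed by -0.37 in GFP worms (limma adjusted p 0.0675). The Abeta calls of mev-1 and sdhd-1 were lost in 6 and 5 of 37 fits that left out 1 array. The differences of sdhb-1 were -0.33 and -0.35, and those of sdha-1 -0.39 and -0.16, in Abeta and GFP worms, and none passed. For sdha-1, GFP T12 replicate 5 read 11.71, against a range of 8.58 to 9.31 on the other GFP arrays of T12, and the SE of its T16 to T8 difference was 0.465 in Abeta worms.

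In complex I, nuo-1 and nuo-4 fell in GFP worms, by 0.42 ± 0.151 and 0.35 ± 0.112 (limma adjusted p 0.0391 and 0.0222). The first encodes the flavoprotein subunit at which NADH is oxidised and nuo-4 an accessory subunit. No complex I gene was called in Abeta or GFP::degron worms. All 6 complex I genes lay below 0 in Abeta and in GFP worms, with ranges of -0.28 to -0.08 and -0.43 to -0.21. Of all genes, 68.6 and 66 percent lay below 0 in these comparisons. The complex I medians were -0.13 in Abeta and -0.30 in GFP worms, beside -0.17 and -0.19 over all genes. The gene gas-1 differed by -0.28 in Abeta, -0.07 in GFP::degron and -0.43 in GFP worms, and did not pass in any of them.

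Among the 7 complex IV subunits, cox-4 and cox-6B fell in GFP worms, both by 0.33 (limma adjusted p 0.0257 and 0.0466). All 7 lay below 0 in Abeta and GFP worms, with medians of -0.18 and -0.27, and none was called in Abeta or GFP::degron worms. The assembly factors cox-11, which delivers copper, cox-15, which makes heme A, and cox-18, which inserts a subunit into the membrane, fell in GFP worms by 0.47, 0.47 and 0.48 (limma adjusted p 0.0151, 0.015 and 0.0262). Leaving out 1 array at a time, the call of cox-18 was lost in 5 of 37 fits, that of cox-11 without GFP T8 replicate 1 or 2, and that of cox-15 without GFP T8 replicate 2. Of the copper-handling factors cox-17 and cox-19, neither passed in any strain. The heme synthesis gene cox-10 was dim, with a mean level of 5.27, and did not pass in any strain.

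In complex V, GFP worms had lower levels of atp-3, the stalk protein OSCP, of the subunit gene atp-5 and of asg-2, a g subunit, by 0.37, 0.33 and 0.49 (limma adjusted p 0.0124, 0.0249 and 0.0124). The catalytic subunits atp-1 (alpha) and atp-2 (beta) differed by -0.41 and -0.28 there and did not pass. The other g subunit, asg-1, differed by 0.06 in Abeta, 0.17 in GFP::degron and 0.00 in GFP worms and did not pass. For all 21 members called in GFP worms, the T16 arrays did not overlap the T8 arrays. The calls were made on these same arrays, and non-overlap was not counted over all genes. Of the 8 members called in Abeta worms, 7 were also called, in the same direction, among the 21 in GFP worms. That is 87.5 percent of the first list and 33.3 percent of the second, and the same overlap was not counted over all genes.

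**Figure D3:**
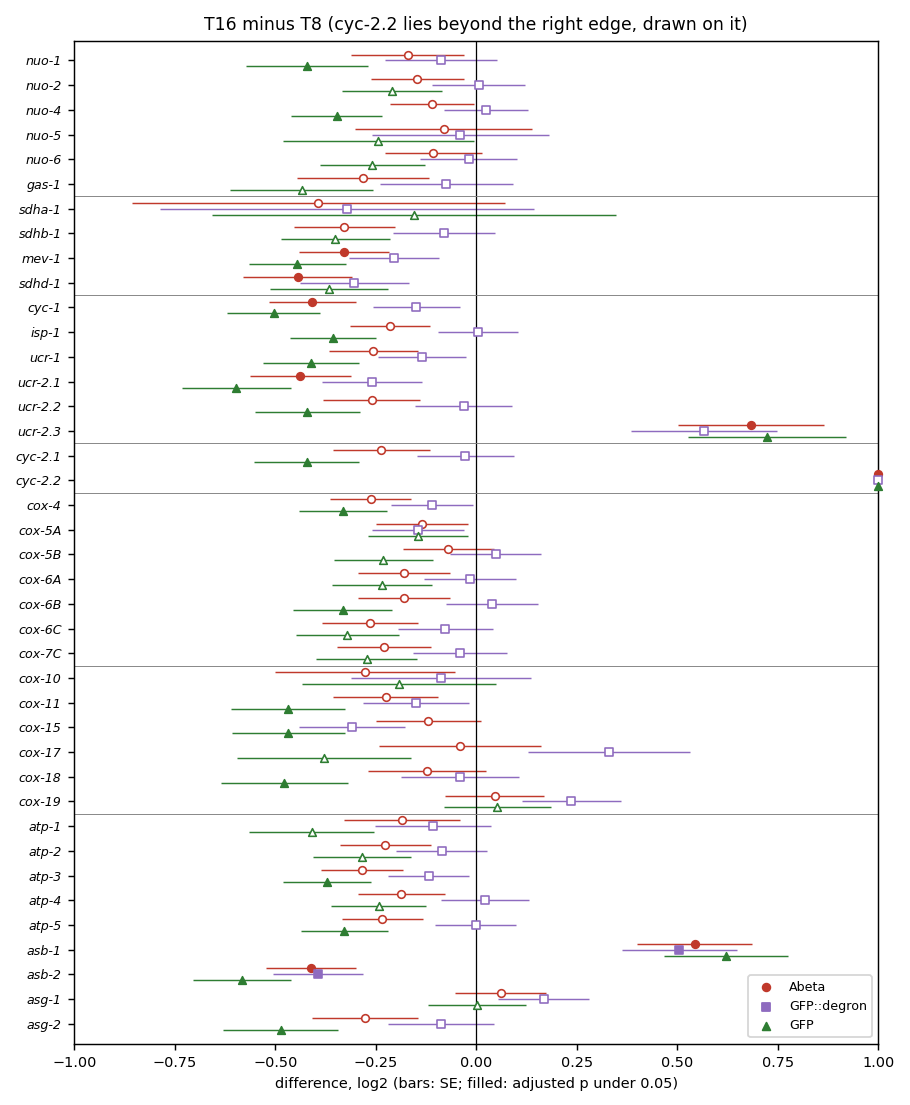
T16 minus T8 in log2 (x axis) for each member (rows, by complex), with SE bars, in Abeta (circles), GFP::degron (squares) and GFP worms (triangles). Filled symbols have a limma adjusted p under 0.05. In GFP worms 18 members lie left of 0 and 3 right of it as filled symbols, and cyc-2.2 (6.73, 2.90 and 7.05) is drawn on the edge.

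The changes between T8 and T16 were then compared between strains by a test of the difference itself. No member was called in the contrast of Abeta and GFP changes (limma, 0 with an unadjusted p under 0.05), beside 0.0175 percent of all genes called. None was called in GFP::degron against GFP (10 with an unadjusted p under 0.05), beside 0.164 percent of all genes (0.0234 percent higher and 0.14 percent lower), or in Abeta against GFP::degron (1 with an unadjusted p under 0.05), beside 0.00584 percent. The GFP::degron against GFP result turned with the setting. With array weights 15 members were called higher and 1 lower, beside 17.4 percent of all genes (1879 higher and 1098 lower). After quantile normalization 2 members were called, beside 0.584 percent of all genes. As reported, the largest of these differences were those of cyc-2.2, at -4.14 ± 1.72 for GFP::degron minus GFP and 3.83 ± 1.65 for Abeta minus GFP::degron (limma adjusted p 0.392 and 1). The sperm markers were split on the GFP::degron arrays of T16, as given above, and whether they account for these differences was not tested. In a fit with the mean of these markers as a covariate, the differences of cyc-2.2 stood at -2.03 and 1.43 (limma adjusted p 0.4 and 0.85). The largest difference between the changes of Abeta and GFP worms was that of cox-18, at 0.36. For GFP::degron minus GFP, 36 of the 40 members lay above 0, with a median of 0.25, beside 0.13 for all genes.

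The single arrays of T20 and T0, paired within strains, gave the widest differences. Over the 3 strains, 3 members rose and 9 fell, 30 percent, beside 36.8 percent of all genes (12.7 percent higher and 24.2 percent lower). The level of cyc-2.2 at T20 was 13.61 in Abeta, 12.70 in GFP::degron and 13.40 in GFP worms, against 4.98, 5.90 and 5.64 at T0, a difference of 7.73 ± 0.332 (limma adjusted p 7.14e-05). All 3 strains, GFP::degron included, had reached this level at T20. The gene ucr-2.3 read 9.78, 9.43 and 9.72, against 8.06, 7.95 and 7.96, and rose by 1.65 ± 0.148 (limma adjusted p 0.000697). The gene asb-1 read 10.11, 10.11 and 10.55, against 8.96, 9.26 and 9.23, and rose by 1.103 ± 0.159 (limma adjusted p 0.00319).

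The members called lower at T20 were asb-2 (-0.80), ucr-2.1 (-0.79), gas-1 (-0.70), cox-11 (-0.63), nuo-1 (-0.62), cyc-2.1 (-0.61), asg-2 (-0.60), ucr-2.2 (-0.55) and atp-5 (-0.46), with limma adjusted p from 0.0129 to 0.048. Each was lower at T20 in 3 of 3 strains. In asb-2, for example, T20 minus T0 was -0.90 in Abeta, -0.94 in GFP::degron and -0.54 in GFP worms, while in nuo-1 it was -0.33, -0.98 and -0.56. The median of all genes was -0.34 in this comparison, and relative to it asb-2 stood at -0.46, ucr-2.1 at -0.45 and atp-5 at -0.13. Among genes of mean level of at least 6, 20 of 39 members were called, beside 54.7 percent of all such genes. All 9 calls of lower members were lost whenever the arrays of 1 strain were left out, and without centring the arrays the members called were 3 higher and 0 lower, with 2448 of all genes higher and 1576 lower in place of 2170 and 4135. The calls of cyc-2.2 and ucr-2.3 held each time, and that of asb-1 was lost without the Abeta arrays (limma adjusted p 0.0629). Of the 12 called members, 11 were also called among the 21 of T16 against T8 in GFP worms, which used other arrays. That is 91.7 percent of the first list and 52.4 percent of the second, and the same overlap was not counted over all genes.

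The first 4 h after the upshift brought no called change. None of the 40 members passed for T4 minus T0 (limma, 1 with an unadjusted p under 0.05), beside 0 percent of all genes, of which 1312 had an unadjusted p under 0.05. The member with the low p was ucr-2.3, at 0.45 in Abeta, 0.44 in GFP::degron and 0.53 in GFP worms (0.47 ± 0.148, limma adjusted p 0.638). Besides ucr-2.3, only asb-1, cox-11, cox-19 and sdha-1 of the 40 moved in 1 direction in all 3 strains. The gene ucr-2.1, for instance, read 11.38 in Abeta, 11.90 in GFP::degron and 11.59 in GFP worms at T4, against 11.22, 12.305 and 11.58 at T0.

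The strains were then compared over T8, T12 and T16, averaging the 3 within-time differences. The comparisons of Abeta and of GFP::degron with GFP share the GFP arrays. Against GFP worms, Abeta worms had lower levels of 3 members, asb-1, asg-1 and ucr-2.3, which is 7.5 percent of the members, beside 4.28 percent of all genes (2.35 percent higher and 1.93 percent lower). Against GFP worms, GFP::degron worms had lower levels of 9 members, 22.5 percent, and higher levels of 0. Of all genes 24.1 percent were called, 11.9 percent higher and 12.2 percent lower. The members' share was thus near the background only when both directions are counted. Among the 9710 genes of mean level of at least 6, 9 of 39 members were called lower, beside 1868 of all such genes higher and 1521 lower. Against GFP::degron worms, Abeta worms had 0 members called (limma, 2 with an unadjusted p under 0.05, and 1 called when limma weighted the arrays), beside 2.19 percent of all genes (0.812 percent higher and 1.38 percent lower). For Abeta minus GFP the members called numbered 1 with only the compared groups in the fit, beside 1.74 percent of all genes. With array weights they numbered 6, beside 31.7 percent. Without centring, all genes called higher and lower numbered 459 and 214 for Abeta minus GFP, in place of 403 and 330, and 2596 and 1598 for GFP::degron minus GFP, in place of nearly equal shares. For Abeta minus GFP::degron they numbered 99 and 453, in place of 139 and 236. The member medians of these comparisons were -0.05, -0.05 and 0.00. After quantile normalization the first 2 medians were 0.03 and 0.02.

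The level of asb-1 was lower in both strains than in GFP worms. At T16 it averaged 9.95 ± 0.045 in Abeta worms and 9.69 ± 0.123 in GFP::degron worms, against 10.39 ± 0.116 in GFP worms (SD, n = 4 each). At T8 it averaged 9.41 ± 0.204 in Abeta (n = 4) and 9.19 ± 0.294 in GFP::degron worms (n = 4), against 9.76 ± 0.331 in GFP worms (n = 3). Over the 3 times the difference was -0.39 ± 0.083 for Abeta minus GFP (limma adjusted p 0.00918, lower on 12 of 12 arrays). It was -0.62 ± 0.082 for GFP::degron minus GFP (limma adjusted p 1.1e-05, lower on 13 of 13 arrays). For Abeta minus GFP::degron it was 0.24 ± 0.081, higher on 12 of 12 arrays, and did not pass (limma adjusted p 0.118).

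The level of asg-1, a g subunit of the membrane part of complex V, also differed. It was 10.92, 10.88, 10.98 and 10.92 on the Abeta arrays of T16, and 10.92, 10.89, 10.91 and 11.08 on the GFP::degron arrays. The GFP arrays of T16 read 11.17, 11.22, 11.27 and 11.17, above all arrays of the other strains at that time. The difference was -0.28 ± 0.066 for Abeta minus GFP and -0.32 ± 0.065 for GFP::degron minus GFP (limma adjusted p 0.0158 and 0.000783, lower on 11 of 12 and 12 of 13 arrays). A second probe set of the gene gave -0.30 and -0.31. At T12, GFP replicate 5 read 11.46 and the other 4 GFP arrays 10.999 to 11.11, and the Abeta arrays of T12 ran from 10.62 to 11.22, so those groups overlapped. The paralogue asg-2 differed by 0.06 and 0.02, and did not pass.

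The level of ucr-2.3 at T16 was 9.42 ± 0.072 in Abeta worms and 9.20 ± 0.135 in GFP::degron worms, against 9.86 ± 0.129 in GFP worms (SD, n = 4 each). Over the 3 times the difference was -0.39 ± 0.106 for Abeta minus GFP (limma adjusted p 0.0296, lower on 11 of 12 arrays) and -0.56 ± 0.104 for GFP::degron minus GFP (limma adjusted p 0.000329, 13 of 13 arrays). The Abeta call was lost in 11 of 37 fits that left out 1 array, and without GFP T12 replicates 1 and 4 (limma adjusted p 0.102).

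The other 6 members called lower in GFP::degron than in GFP worms were spread over the complexes. Largest was cyc-2.2, at -2.56 ± 0.670 (limma adjusted p 0.00552, each of 13 arrays below the GFP mean of its time). At T12 that mean was raised by GFP replicates 1 and 4, at 11.67 and 11.28. The other GFP arrays of T12 read 5.21, 4.85 and 5.86 and overlapped the GFP::degron arrays, at 5.02 to 5.75. The difference of cyc-2.2 stood at -1.74 without GFP T12 replicates 1 and 4, with a limma adjusted p of 0.0121. For Abeta minus GFP the gene differed by -1.23 ± 0.682 (limma adjusted p 0.311), and for Abeta minus GFP::degron by 1.34 ± 0.663 (limma adjusted p 0.299). In complex II, sdhb-1 and sdhd-1 were lower by 0.26 and 0.21 (limma adjusted p 0.00978 and 0.0443), and in complex I nuo-2 by 0.23 (limma adjusted p 0.0106). Of the complex IV assembly factors, cox-11 and cox-19 were lower by 0.25 and 0.21 (limma adjusted p 0.0145 and 0.025). The call of sdhd-1 was lost in 15 of 37 fits that left out 1 array. That of cox-19 was lost without GFP T8 replicate 4 or GFP::degron T16 replicate 1. A second probe set of sdhb-1 gave -0.14.

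By complex, the median for GFP::degron minus GFP was -0.07 in complex I, -0.14 in complex II, -0.01 in complex III, -0.03 in the complex IV subunits, -0.15 in the assembly factors and -0.02 in complex V without asb-1. For Abeta minus GFP these medians were -0.09, -0.12, -0.02, -0.04, -0.06 and -0.05. The genes cyc-1, isp-1, nuo-1, ucr-2.1, atp-1 and atp-2, singled out after their values were seen, lay between -0.01 and 0.02 for GFP::degron minus GFP, with SEs of 0.057 to 0.083. The second probe set of cyc-1 gave -0.11 there and -0.19 for Abeta minus GFP. In Abeta worms nuo-6 and nuo-2 were at -0.19 and -0.15 against GFP worms and did not pass (limma adjusted p 0.105 and 0.192). The members mev-1, sdha-1 and gas-1 did not pass in any of the 3 strain comparisons. A dimmer second probe set of sdha-1, of mean level 7.42, gave -0.27 for GFP::degron minus GFP and -0.40 for Abeta minus GFP. The one used gave 0.006 and 0.025.

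**Figure D4:**
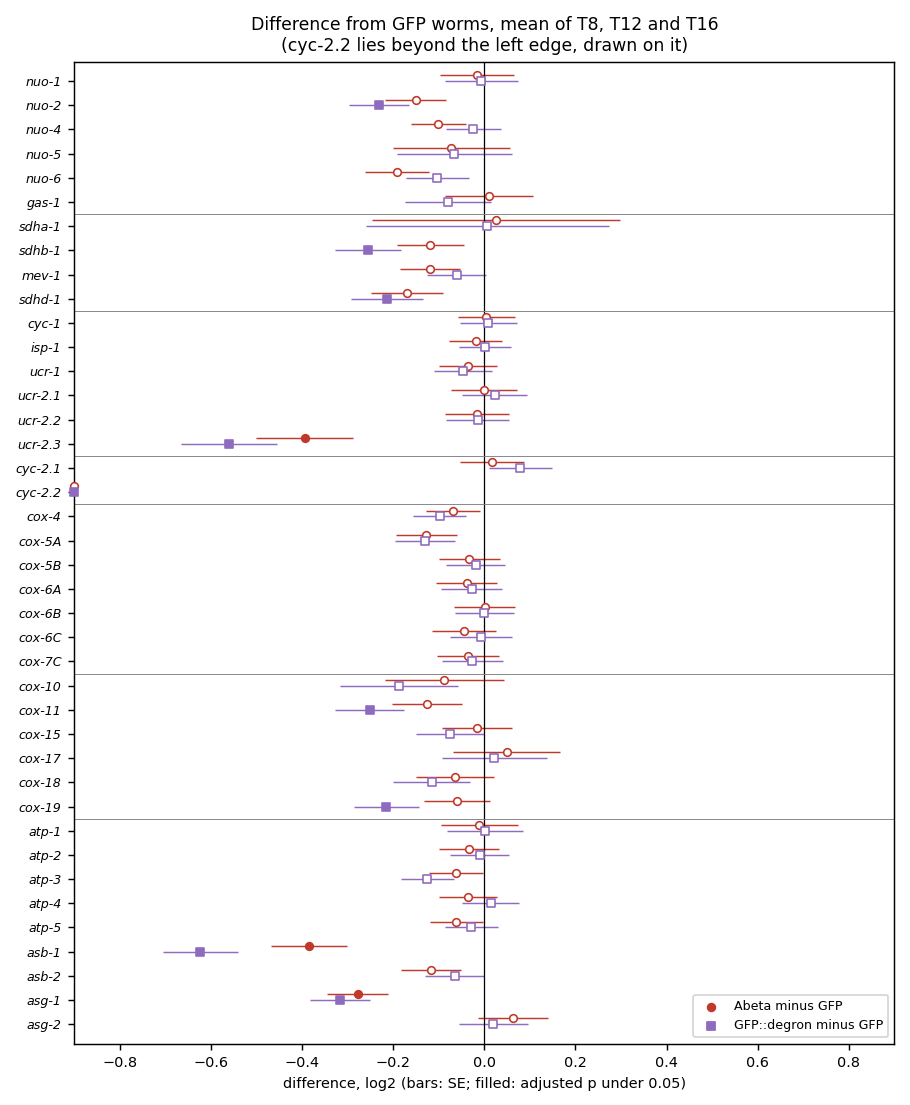
Difference from GFP worms in log2 (x axis), averaged over T8, T12 and T16, for each member (rows, by complex) with SE bars, in Abeta (circles) and GFP::degron worms (squares). Filled symbols have a limma adjusted p under 0.05. The filled ones, 3 for Abeta and 9 for GFP::degron, are all left of 0, and cyc-2.2 (-1.23 and -2.56) is drawn on the edge.

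Germ line and sperm markers also differed over time and between strains. For T16 minus T8 their medians lay above 0 in each strain, as did cyc-2.2, asb-1 and ucr-2.3. In the same comparisons 35, 28 and 35 of the 40 members lay below 0 in Abeta, GFP::degron and GFP worms, beside 68.6, 51.1 and 66 percent of all genes. Below the median of all genes lay 26, 27 and 33 members. For T16 minus T8, 14, 9 and 15 of 17 sperm markers rose in Abeta, GFP::degron and GFP worms, and 15, 9 and 19 of 21 germline and oocyte markers. The summed intensity of the sperm markers was 36639 to 110935 on the Abeta arrays of T16, against 1052 to 1658 at T8, and 124451 to 163729 on the GFP arrays of T16, against 1014 to 7924 at T8. On the GFP::degron arrays of T16 it ran from 1521 to 72420, against 821 to 1033 at T8. The dimmest marker, spe-38, had a mean level of 2.89 over the arrays. For the strain differences, 3 of 17 sperm markers and 9 of 21 germline markers were lower in Abeta than in GFP worms, and 14 and 17 were lower in GFP::degron worms than in GFP worms. None was called in Abeta against GFP::degron worms.

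Across the 37 arrays of T8, T12 and T16, the correlation with the mean of the sperm markers was 0.96 for cyc-2.2, 0.85 for ucr-2.3 and 0.69 for asb-1, and -0.82 for ucr-2.1 and -0.73 for asb-2. After subtracting group means the values were 0.87, 0.62, 0.39, -0.69 and -0.49. For asg-1 they were 0.40 and 0.03. These describe arrays that share strain, time and scaling, and carry no test. In a fit with the mean of the sperm markers as a covariate, asb-1 differed by -0.47 between GFP::degron and GFP worms (limma adjusted p 0.0161) and asg-1 by -0.31 (limma adjusted p 0.0476). In that fit ucr-2.3 stood at -0.22 (limma adjusted p 0.271), and cyc-2.2 changed sign to 0.64 (limma adjusted p 0.443). The calls of sdhb-1, cox-11, nuo-2 and sdhd-1 held, at -0.40, -0.44, -0.36 and -0.39 (limma adjusted p 0.0162, 0.0117, 0.0187 and 0.0274). That of cox-19 was lost, at -0.21 (limma adjusted p 0.219). The fit called 7 of the 40 members lower, 17.5 percent, beside 4.8 percent of all genes (157 higher and 665 lower). It moved the members' median from -0.05 to -0.21, and that of all genes from -0.01 to -0.03. As the sperm markers themselves differed between these strains, the fit cannot separate strain from marker level. For Abeta minus GFP none of the 40 members passed with the covariate, beside 0.532 percent of all genes. There asb-1, asg-1 and ucr-2.3 stood at -0.30, -0.27 and -0.20.

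**Figure D5:**
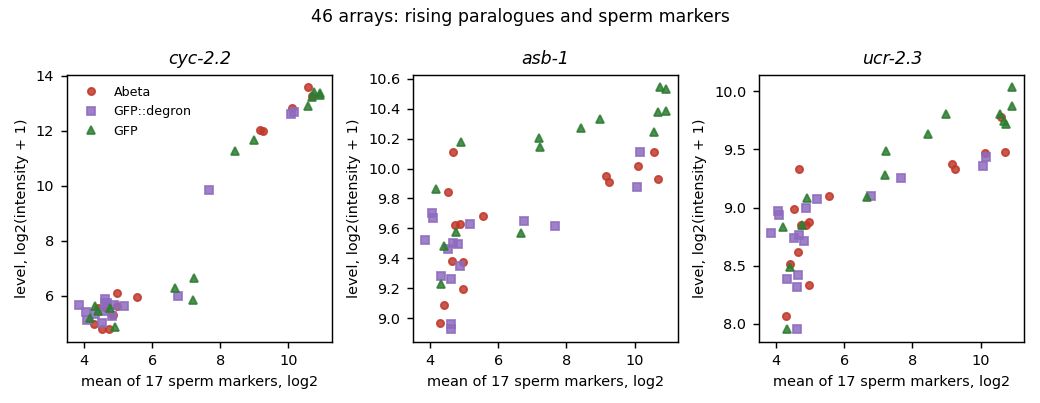
Log2 level (y axes) of cyc-2.2, asb-1 and ucr-2.3 on each of 46 arrays against the mean log2 level of 17 sperm markers (x axes), with Abeta as circles, GFP::degron as squares and GFP as triangles. Arrays with a sperm mean above 8 are those with cyc-2.2 above 11, and among the other arrays asb-1 ranges from 8.92 to 10.21.

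Pharyngeal muscle and neuron markers had lower medians at T16 than at T8. In Abeta, GFP::degron and GFP worms, 4, 2 and 7 of 7 pharyngeal muscle markers fell, with medians of -0.82, -0.75 and -1.07, beside -0.17, -0.01 and -0.19 over all genes. Of 14 neuron markers 8, 2 and 11 fell, with medians of -0.71, -0.57 and -0.82. Of 15 body-wall muscle markers 4, 3 and 2 fell, with medians of -0.36, -0.39 and -0.23, and 1 rose in Abeta worms. The 2 that fell in GFP worms stand beside 13.5 percent of all genes called lower. Of 11 intestine markers 1, 0 and 2 rose in Abeta, GFP::degron and GFP worms, and of 9 epidermis and cuticle markers 3, 1 and 2 rose and 0, 0 and 1 fell.

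Between strains, 7 of 7 pharyngeal muscle markers, 10 of 14 neuron markers, 1 of 15 body-wall muscle markers and 1 of 9 epidermis markers were higher in GFP::degron worms set against GFP worms. Lower there were 6 body-wall muscle, 3 intestine and 3 epidermis markers. In Abeta worms set against GFP worms, 5 body-wall muscle markers were lower, and 1 body-wall muscle and 1 neuron marker were higher. In Abeta worms set against GFP::degron worms, 2 pharyngeal muscle markers were lower. The part of these tissues in the members' differences was not tested.

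Other genes of energy metabolism were counted from lists. Of 33 further measured genes of the oxidative phosphorylation machinery, 2 rose in each strain between T8 and T16, the same 2 each time, and 1, 0 and 6 fell in Abeta, GFP::degron and GFP worms. Those that rose were sdha-2, a paralogue of sdha-1, by 0.82 in Abeta, 0.88 in GFP::degron and 0.63 in GFP worms, and nduf-2.2, a paralogue of gas-1, by 0.60, 0.86 and 0.54 (limma adjusted p from 0.000288 to 0.0494). For GFP::degron minus GFP they stood at -0.41 and -0.36 (limma adjusted p 0.000771 and 0.0132). At T20 they exceeded T0 by 2.08 and 1.56 (limma adjusted p 0.000373 and 0.00403). One gene of this list, nduf-11, stood at -0.29 for Abeta minus GFP::degron (limma adjusted p 0.0331).

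Of 5 ADP/ATP carriers and uncoupling genes, ant-1.3 and ant-1.4 rose in all 3 strains between T8 and T16, by 4.06 and 3.77 in Abeta worms, 2.803 and 2.96 in GFP::degron worms and 3.69 and 3.18 in GFP worms (limma adjusted p from 0.000191 to 0.0364). Their copy ant-1.1 fell by 0.39 in GFP worms (limma adjusted p 0.0176). Among 16 glycolysis genes 1 rose and 7 fell in Abeta worms, 0 rose and 2 fell in GFP::degron worms, and 1 rose and 10 fell in GFP worms. The one that rose, pfk-1.2, and the falling pfk-1.1 both encode phosphofructokinase, and they changed by 2.79 and -0.73 in GFP worms (limma adjusted p 0.0154 and 0.032). Of 22 genes of the tricarboxylic acid cycle and pyruvate dehydrogenase, 5, 2 and 12 fell in Abeta, GFP::degron and GFP worms and none rose, with idhg-2 falling in all 3. Of 7 ubiquinone synthesis genes, 2 fell in GFP worms, coq-1 and coq-8, by 0.64 and 0.61 (limma adjusted p 0.00589 and 0.00615).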

How the data were processed

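The authors' deposited values are linear intensity summaries of 22625 probe sets on 47 Affymetrix arrays, and the submitters' processing notes name Affymetrix Expression Console 1.1. The sources used here do not say how probes were summarised or arrays scaled. The 77 control probe sets and probe sets naming several genes were left out, and the brightest probe set on average stood for each gene, under the platform annotation of 2016. The deposited intensities were turned into log2(intensity + 1) and each array was centred on its median. Fits used limma 3.58.1 (lmFit, eBayes) in R 4.3.3 with Benjamini-Hochberg adjustment over 17118 genes. One fit gave a mean to each of 9 strain and time groups on 37 arrays (28 residual degrees of freedom). A second used the 9 arrays of T0, T4 and T20 with strain as a block (4 residual degrees of freedom). Both were tested on simulated data. Plots used python 3.11.15 and matplotlib 3.10.9.

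The 40 members and 12 fixed lists were chosen with earlier results of these data known. Named were up to 12 called members per comparison by size, the 4 largest differences where fewer than 4 were called, a fixed set of subunits, and up to 3 called genes per list and direction. The members nuo-4 and cox-6B were named beyond this rule after their values were seen. An array counts in a direction by its side of the other group's mean at the same time. Precision is limited by the number of arrays. Transgenes were not analysed here. Alternatives changed the centring, pseudocount, probe set rule, arrays, weights, block and covariate.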

Additional observations from a re-analysis of the deposited data

Results flagged for a closer look

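Over 40 members and 8 groups of 4 or 5 arrays, 320 sets of values were checked for an array lying far from its group by Dixon's criterion, which chance meets in about 1 in 20 groups, and 23 met it. The widest gap was that of sdha-1 on GFP T12 replicate 5, which read 11.71 with the nearest GFP array of T12 at 9.31. On the same array asg-1 read 11.46, with its nearest neighbour at 11.11. Abeta T12 replicate 1 was high in 4 members, at 13.38 for atp-2, 9.06 for cox-11, 12.89 for cox-5B and 11.86 for nuo-1. GFP::degron T8 replicate 1 was high in 3, at 8.60 for cox-18, 11.60 for mev-1 and 11.78 for nuo-1. GFP::degron T16 replicate 2, the array of that group with the highest sperm marker mean, was high for asb-1 at 9.88 and low for cox-7C at 12.36 and cyc-2.1 at 13.11.

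The remaining 11 values stood alone or in pairs. GFP T16 replicate 1 read 8.27 for cox-15, below its group, and 8.00 for cox-18, above it. GFP T16 replicate 2 read 12.51 for atp-4, above its group, and 9.80 for nuo-5, below it. Values below their group were those of atp-1 on Abeta T16 replicate 1 (12.41), atp-5 on Abeta T16 replicate 2 (12.18), nuo-2 on Abeta T16 replicate 3 (10.90), mev-1 on Abeta T8 replicate 3 (11.13) and cox-18 on GFP::degron T12 replicate 1 (8.25). Values above their group were those of asg-1 on GFP::degron T16 replicate 4 (11.08) and isp-1 on GFP::degron T12 replicate 2 (13.04).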

How the results depend on the processing

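Of 46 called values of named members, 46 were kept with a pseudocount of 16, 46 with genes of mean level of at least 6 only, 45 with the mean of a gene's probe sets, 38 after quantile normalization and 31 with no centring. With GFP T8 replicate 3 included, 28 of 34 were kept. Counts of members called moved as follows, and the cause was not tested. With only the compared groups in the fit, which has fewer arrays, they were 1 for Abeta minus GFP, 3, 0 and 9 for T16 minus T8 in Abeta, GFP::degron and GFP. With array weights they were 6 for Abeta minus GFP, 1 for Abeta minus GFP::degron, 18 and 8 for T16 minus T8 in Abeta and GFP::degron, and 16 (15 higher) for the GFP::degron minus GFP difference in T16 minus T8, where the same setting called 31.7, 9.64, 24.1, 22.2 and 17.4 percent of all genes, against 4.28, 2.19, 16.1, 6.05 and 0.164 percent as reported. With no centring they were 4 for T16 minus T8 in Abeta and 3 for T20 minus T0, beside 12.4 and 23.5 percent of all genes. Quantile normalization gave 14 for T16 minus T8 in Abeta and 5 for T20 minus T0, beside 21.2 and 34.1 percent of all genes. It gave 2 for the GFP::degron minus GFP difference in T16 minus T8, beside 0.584 percent. Members higher and lower for GFP::degron minus GFP numbered 3 and 9 there, beside 2792 and 2336 of all genes. With GFP T8 replicate 3 included, T16 minus T8 gave 4, 1 and 34 in Abeta, GFP::degron and GFP. The shares of all genes called there were 13.1, 4.31 and 30.1 percent. T20 minus T0 gave 20 with genes of mean level of at least 6 only and 31 with all 46 arrays in the fit, beside 54.7 and 44.2 percent of all genes tested. With the sperm marker covariate Abeta minus GFP gave 0, beside 0.532 percent of all genes. GFP::degron minus GFP gave 7, all lower, beside 4.8 percent (157 genes higher and 665 lower). In that fit cyc-2.2 turned to 0.60 for Abeta minus GFP, -0.044 for Abeta minus GFP::degron and 0.64 for GFP::degron minus GFP. Leaving out GFP T12 replicates 1 and 4, an alternative chosen after seeing the data, gave 4 for T16 minus T8 in GFP::degron. That setting called 7.25 percent of all genes.

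Leaving out 1 array at a time gave 2 to 3 calls for Abeta minus GFP, 0 to 0 for Abeta minus GFP::degron, 8 to 9 for GFP::degron minus GFP, 4 to 9 for T16 minus T8 in Abeta, 0 to 4 in GFP::degron and 11 to 23 in GFP, and 0 to 0 for each difference between strains in T16 minus T8. In Abeta the count was 5 without T8 replicate 2 or 4 and 4 without T16 replicate 3. In GFP::degron it was 0 without T8 replicate 2 or T16 replicate 2, 3 or 4, 1 without T8 replicate 1 or 4, and 4 without T16 replicate 1. In GFP it was 13 without T8 replicate 2 and 11 without T8 replicate 4. Leaving out 1 strain gave 0 to 0 for T4 minus T0 and 2 to 3 for T20 minus T0, with 2 without the Abeta arrays, and for nuo-1 in T4 minus T0 -0.28 to 0.024, the sign turning without the GFP::degron arrays. Samples with the same replicate number had a median correlation of deviations of 0.17 over 35 pairs, 21 of them above 0.1 and the lowest -0.23. Samples with different numbers had a median of -0.04 over 118 pairs, 28 of them above 0.1. All same-number pairs were above 0.1 between Abeta and GFP at T8 and at T16 and between GFP::degron and GFP at T12. This did not hold over all times in any pair of strains, and the main fit treated samples as unpaired. Its p-values for the strain comparisons therefore make no allowance for likeness of same-number samples within a time. A block by replicate number gave 3, 0 and 9 calls for the strain comparisons in the order above, beside 4.83, 3.05 and 25.6 percent of all genes. It gave 8, 2 and 20 for T16 minus T8 in Abeta, GFP::degron and GFP, beside 16.9, 6.76 and 24.2 percent, and 0 for their differences. This block joined the same number across T8, T12 and T16, so pairing within a time was not tested by it.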
